A study of Mus musculus with 33 samples.

Results

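The nuclear genes for the subunits of oxidative phosphorylation were examined in single germinal vesicle oocytes of mice with and without a working Nlrp5 gene. Members were the genes whose symbol begins with Nduf and a subunit letter and number, is Sdha, Sdhb, Sdhc or Sdhd, or begins with Uqcr, with Cox, a number from 4 to 8 and a letter from a to c, or with Atp5. Symbols with -ps were left out. This gave 82 of the 35321 genes in the table, namely 37 of complex I, 4 of complex II, 8 of complex III, 16 of complex IV and 17 of complex V. Genes were placed in complexes by the start of the symbol alone, and this was not checked gene by gene. The pattern does not take in every subunit gene. It misses, for example, Cox4i1, Cyc1 and Ndufab1, and these were kept as a list of their own.

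The oocytes came from 3-week-old C57BL6/Babr females carrying the wild-type allele (Nlrp5 +/+, 10 oocytes), a frameshift deletion made by CRISPR/Cas9 on 1 allele (Nlrp5 +/-, 16 oocytes) or on both (Nlrp5 -/-, 7 oocytes). Mutant and heterozygous donors shared litters, but most wild-type donors came from the colony in which the line was founded, and the deletion is a single engineered allele. The study placed 17 oocytes at the less mature non-surrounded nucleolus (NSN) stage and 15 at the surrounded nucleolus (SN) stage, after sequencing and from the expression of marker genes in these same libraries. Oocyte 15, an Nlrp5 -/- oocyte, has no stage. The wild type contributed 4 NSN and 6 SN oocytes, the heterozygote 9 and 7, and the homozygous mutant 4 and 2. The heterozygote's stages were read from the stage bar of a published heatmap, and the study's text gives smaller numbers for it, so they are less certain. Each library is 1 cell and the labels name no mouse, so every genotype at a stage was taken as 1 sample. No test was run and no p-value is given, and an SD describes the spread between oocytes, which may share a mother.

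The libraries held 4225037 to 15579217 counts on genes, and 0.531% to 1.28% of these fell on the members, which is 23493 to 123847 counts per oocyte. Counts were divided by size factors (the median ratio of each library to the mean library over 11850 genes seen in all 33 oocytes) and are called normalized counts. Nlrp5 itself checked the genotype labels, with 10112 to 29132 normalized counts in Nlrp5 +/+ oocytes, 5062 to 13473 in Nlrp5 +/- oocytes and 1362 to 2556 in Nlrp5 -/- oocytes. The defining oocyte markers took 21722 to 39866 CPM (counts per 1e6 counts) in every library. Granulosa cell markers were above the 128 CPM of the highest Nlrp5 +/+ or Nlrp5 +/- oocyte in the Nlrp5 -/- oocytes 7 (190.5), 13 (247), 14 (483) and 15 (1365). Theca cell markers, at 42.3 to 49.6 CPM in NSN Nlrp5 +/+ oocytes, reached 385 in oocyte 61 and 141 in oocyte 54 (both Nlrp5 +/-, NSN, with member scores, defined below, of 0.36 and 0.59), 282 in oocyte 14 and 709 in oocyte 15. Over the 33 oocytes the member score and the granulosa markers had r = 0.338 (rho 0.355), and over the 32 staged ones r = 0.098 (0.293). The part of these markers in the results was not tested further.

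Oxidative phosphorylation couples the oxidation of nutrients to the synthesis of ATP at the inner mitochondrial membrane. Complex I (NADH dehydrogenase) and complex II (succinate dehydrogenase) feed electrons to complex III (the cytochrome bc1 complex) and complex IV (cytochrome c oxidase), which reduces oxygen, and complex V is the ATP synthase driven by the resulting proton gradient. Most subunits are encoded in the nucleus and imported, while a small set is encoded in mitochondrial DNA, except in complex II, whose subunits are all nuclear. The growing oocyte accumulates mitochondria and maternal transcripts and relies on this pathway for ATP, with pyruvate supplied by its follicle cells.

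Promoter windows from RefSeq (build GRCm38.p6, 250 bases before to 50 after a transcription start) were found by symbol for 68 of the 82 members, in 73 windows. They were searched on both strands for the palindromic core of the NRF1 site, CCGGAAG (the ETS core read by GABPA), AAGATGGC (YY1) and TATAAA. The ETS and YY1 letters can share AAG, and matches were counted separately for each motif. The NRF1 letters were in 6.85% of the member windows and 0.971% of all 32851 windows, the ETS letters in 23.3% and 8.86%, the YY1 letters in 13.7% and 2.75%, and TATAAA in 12.3% and 13.6%. Median GC content was 57.3% in the member windows and 52.7% in all windows. The YY1 letters lay in windows of 7 complex I genes and 3 complex V genes, and the NRF1 letters in those of Ndufa11, Uqcrc1, Cox6a1, Atp5g2 and Atp5k. A match is a description of these letters and not of binding. The windows below are shown because Uqcrc1 differed most between the stages, Cox6a1 had the highest level per kb of merged exons in complex IV (Cox6c per kb of the canonical transcript), and Cox6b1 and Cox6b2 are alternative subunits that were both measured at appreciable levels. Capitals mark the matched letters, and Cox6b2 has none.
Uqcrc1, chr9:108936398-108936697, plus strand: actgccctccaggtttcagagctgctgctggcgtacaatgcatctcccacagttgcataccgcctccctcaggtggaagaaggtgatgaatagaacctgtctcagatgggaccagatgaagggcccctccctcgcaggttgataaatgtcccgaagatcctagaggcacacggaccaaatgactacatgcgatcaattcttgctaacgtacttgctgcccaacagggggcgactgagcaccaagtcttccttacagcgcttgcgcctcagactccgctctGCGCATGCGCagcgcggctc
Cox6a1, chr5:115348909-115349208, minus strand: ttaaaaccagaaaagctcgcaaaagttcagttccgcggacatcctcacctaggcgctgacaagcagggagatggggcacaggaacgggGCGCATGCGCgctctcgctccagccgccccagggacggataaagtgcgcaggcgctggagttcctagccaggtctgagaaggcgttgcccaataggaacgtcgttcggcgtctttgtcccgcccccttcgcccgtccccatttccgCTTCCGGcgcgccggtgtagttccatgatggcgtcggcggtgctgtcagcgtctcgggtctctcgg
Cox6b1, chr7:30626065-30626364, minus strand: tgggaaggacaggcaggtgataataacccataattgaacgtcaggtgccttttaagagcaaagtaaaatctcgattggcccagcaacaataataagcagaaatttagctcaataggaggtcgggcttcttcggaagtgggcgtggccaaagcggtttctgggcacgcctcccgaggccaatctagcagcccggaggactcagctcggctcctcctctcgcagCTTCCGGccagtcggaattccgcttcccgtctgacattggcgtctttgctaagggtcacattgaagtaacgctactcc
Cox6b2, chr7:4753045-4753344, minus strand: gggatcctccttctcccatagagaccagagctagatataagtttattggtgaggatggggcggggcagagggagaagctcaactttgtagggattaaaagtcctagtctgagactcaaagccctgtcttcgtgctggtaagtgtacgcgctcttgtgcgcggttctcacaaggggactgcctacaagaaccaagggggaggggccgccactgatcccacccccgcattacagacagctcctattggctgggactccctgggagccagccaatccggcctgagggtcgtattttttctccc

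Transcripts of nearly the whole nuclear set were present in these oocytes. Of the 82 members, 77 had a mean of at least 10 normalized counts, and each of these 77 had a count in all 33 oocytes. The other 5 were genes for alternative subunits, namely Ndufa4l2 (2.53 normalized counts on average), Cox7a1 (1.38), Cox8c (5.59), Cox7b2 and Cox8b, the latter pair with 1 count each in all oocytes together. Levels were compared between genes only per kb. Per kb of merged exons the highest members were Ndufa2 in complex I (1717 normalized counts per kb), Sdhd in complex II (468), Uqcrh in complex III (568), Cox6a1 in complex IV (1231) and Atp5o, the OSCP subunit of the ATP synthase stalk, in complex V (1831). Per kb of the canonical transcript the highest were instead Ndufa4 (2473), Sdhd (950.0), Uqcrc2 (1015), Cox6c (2451) and Atp5e (3099). Ndufa4 is counted with complex I by its symbol only, and the next gene there was Ndufa2 (1818). The highest gene thus depended on the length used for all complexes but complex II. Atp5o is listed under 1 identifier in 2 entries, with 34336 and 16633 counts, and the entry with more counts was used. The excluded Ndufb1-ps entry held 40845 counts in all oocytes together. Another entry overlapped 29 members, 26 of them on the opposite strand, and for 8 the other entry had at least 50% of the member's counts. The reads are not known to be counted by strand, so such genes cannot be fully told apart from their neighbours.

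Several subunits exist in tissue-specific forms, and the oocytes used the ubiquitous form of most of them. Cox7b made up 99.997% ± 0.015 (SD, n = 33) of its family per kb, Cox8a 98.9% ± 0.89 and Ndufa4 98.2% ± 2.38. Cox6b2, known as the testis form of subunit VIb, was the exception, with 46.1% ± 8.19 of the Cox6b family and a range from 26.5% in oocyte 15 to 63.8% in an NSN Nlrp5 -/- oocyte. Its share was 45.3% ± 6.86 in NSN Nlrp5 +/+ oocytes and 58.7% ± 3.42 in NSN Nlrp5 -/- oocytes, where the lowest was 56.6% and the highest Nlrp5 +/+ oocyte had 55.1%. Cox6a2, the heart and muscle form of subunit VIa, gave 13.5% ± 4.62 of the Cox6a family. Of the genes for subunit c of the ATP synthase, which encode the same mature protein, Atp5g1 gave 49.5% ± 7.94, Atp5g2 27.3% ± 6.83 and Atp5g3 23.1% ± 9.10. Those are shares over all oocytes, and groups differed. At NSN Atp5g1 gave 51.4% ± 3.34 (SD, n = 4) in Nlrp5 +/+ oocytes and 38.3% ± 4.45 (n = 4) in Nlrp5 -/- oocytes. In NSN Nlrp5 +/+ oocytes Atp5g2 (24.2%) and Atp5g3 (24.4%) were alike, and Atp5g3 reached 58.9% in oocyte 15. All of these shares depend on the length used. Per kb of the canonical transcript Atp5g1 had 1562, Atp5g2 733 and Atp5g3 235 normalized counts, and Cox6b1 had 987 against 452 for Cox6b2, so that Atp5g3 and Cox6b2 took smaller shares.

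Within a genotype and stage the members differed between oocytes, and they did so together. A score was given to each oocyte, the median over the 77 members of the log2 normalized count minus that gene's mean over all oocytes. It ran from -0.78 in oocyte 29 (Nlrp5 -/-, NSN) to 0.70 in oocyte 15. In oocyte 29, 71 of 77 members were below their own mean, and in oocyte 56 (Nlrp5 +/-, NSN) 74 were above it. The score was -0.14 ± 0.15 (SD over 4 oocytes) in NSN Nlrp5 +/+, 0.09 ± 0.39 (9) in NSN Nlrp5 +/- and -0.36 ± 0.49 (4) in NSN Nlrp5 -/- oocytes. At SN it was 0.03 ± 0.39 (6), -0.01 ± 0.32 (7) and 0.22 ± 0.17 (2). All of these ranges overlapped except those of NSN Nlrp5 +/+ and SN Nlrp5 -/- oocytes. The lowest scores came from the NSN Nlrp5 -/- oocytes 29 and 13 (-0.74), whose group also held oocyte 14 at 0.24.

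The summed normalized counts of a complex followed the same course in 4 of the 5 complexes. The highest oocyte exceeded the lowest 2.72-fold for complex I, 2.89-fold for complex III, 3.11-fold for complex IV and 2.44-fold for complex V, but 1.85-fold for complex II. Across the 33 oocytes the score of complex I correlated with that of complex III at Pearson's r = 0.885 (Spearman's rho 0.937), of complex IV at 0.957 (0.942) and of complex V at 0.943 (0.944), and with that of complex II at 0.495 (0.402). These coefficients are descriptions over libraries that share a size factor and, in part, a mother. In NSN Nlrp5 -/- oocytes the complex I sum was 15295, 26803, 14206 and 20885 normalized counts, whereas that of complex II was 4027, 4351, 3900.4 and 3922. As sums, the first varied far more than the second among the same 4 oocytes. Gene by gene the complexes were closer, with a median coefficient of variation over the staged oocytes of 0.33 in complex I and 0.29 in complex II. Complex II has 4 genes, all with canonical transcripts of at least 1258 bases. In NSN Nlrp5 +/+ oocytes the complex I sum lay between 19900.2 and 22718 and that of complex II between 3016 and 3796, below all 4 Nlrp5 -/- oocytes.

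**Figure D1:**
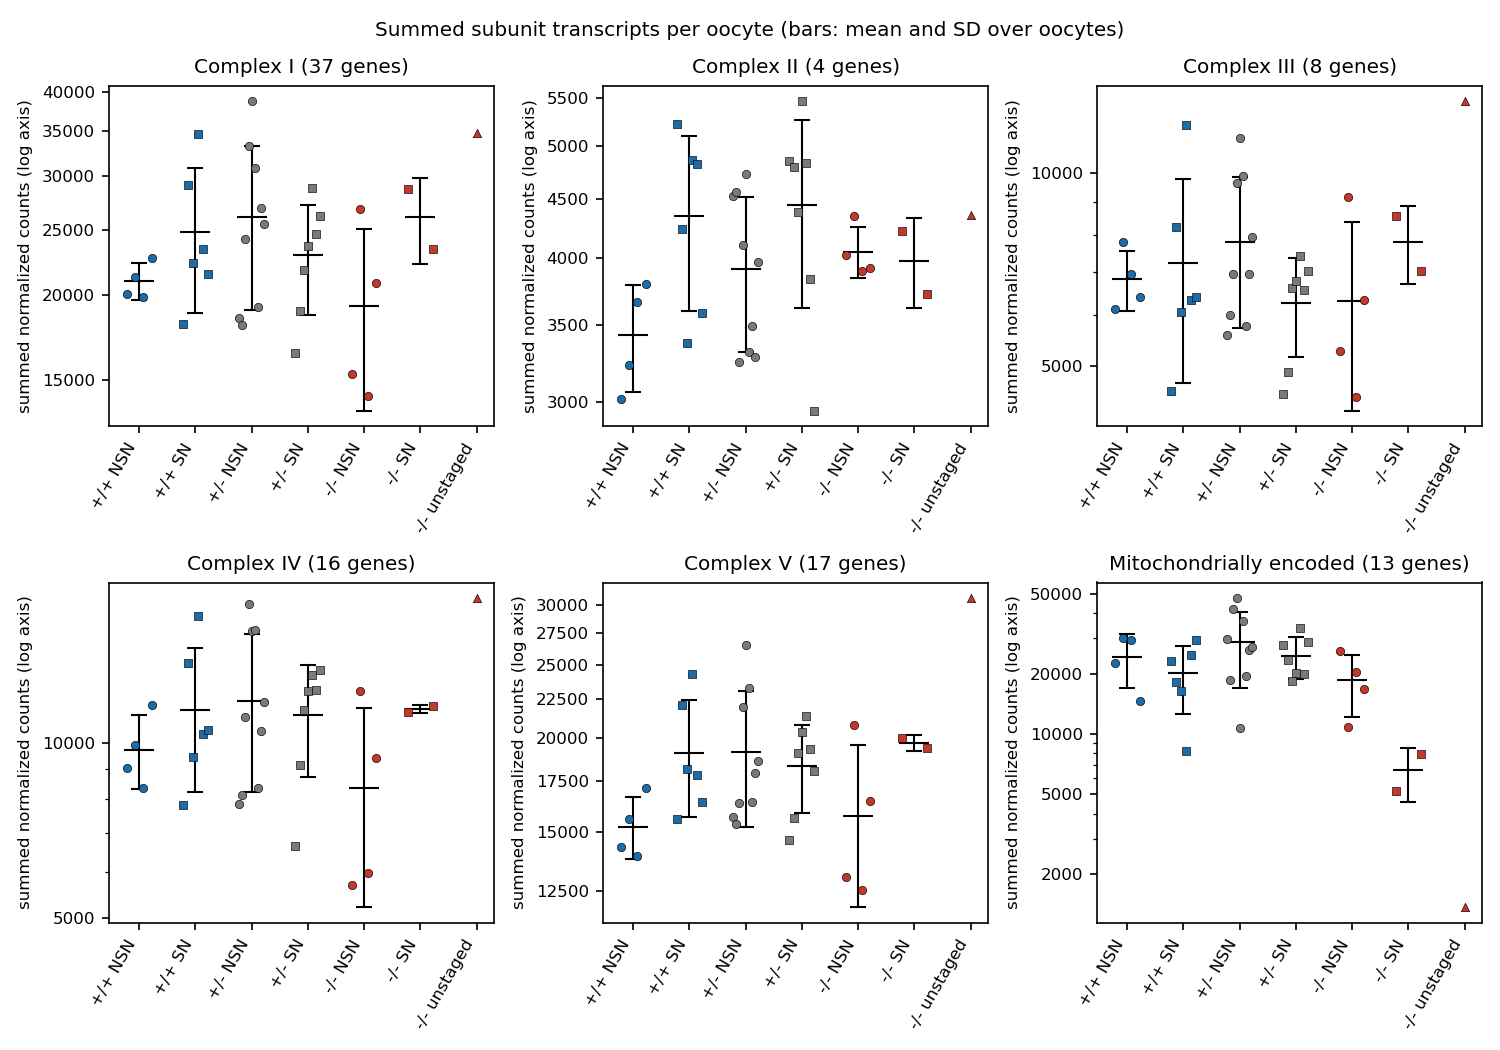
Summed normalized counts (log axis) of each complex and of the 13 mitochondrially encoded subunit genes, with 1 point per oocyte and bars for the mean and SD over the oocytes of a genotype and stage. Over all oocytes complex II has the smallest ratio of highest to lowest (1.85), and the mitochondrially encoded sum is lowest in the SN and unstaged Nlrp5 -/- oocytes.

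The member score moved with the lengths of transcripts and with the library index. Other genes with a canonical transcript under 1000 bases (1393 of them) had a median score that correlated with the member score at r = 0.905 (rho 0.903) over 33 oocytes and at r = 0.968 (0.971) over the 32 staged ones, and other genes with longer transcripts at r = -0.572 (-0.640) and -0.775 (-0.799). All of these scores share the size factor of the library. Members with short transcripts (37) and with long ones (40) themselves correlated at r = 0.958 (rho 0.956). In all, 4 second index sequences were used in library preparation. The median member score was -0.43 in 9 oocytes with AAGGAGTA (index 1), 0.10 in 9 with CGTCTAAT (index 2), -0.12 in 9 with CTAAGCCT (index 3) and 0.26 in 6 with TCTCTCCG (index 4). Scores above 0 were found in 2, 8, 3 and 5 of these oocytes. The NSN Nlrp5 -/- oocytes carried only indices 1 and 3 and both SN Nlrp5 -/- oocytes index 2, so stage in this genotype cannot be told apart from the second index. Each of the 10 first indices held oocytes of 1 genotype.

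**Figure D2:**
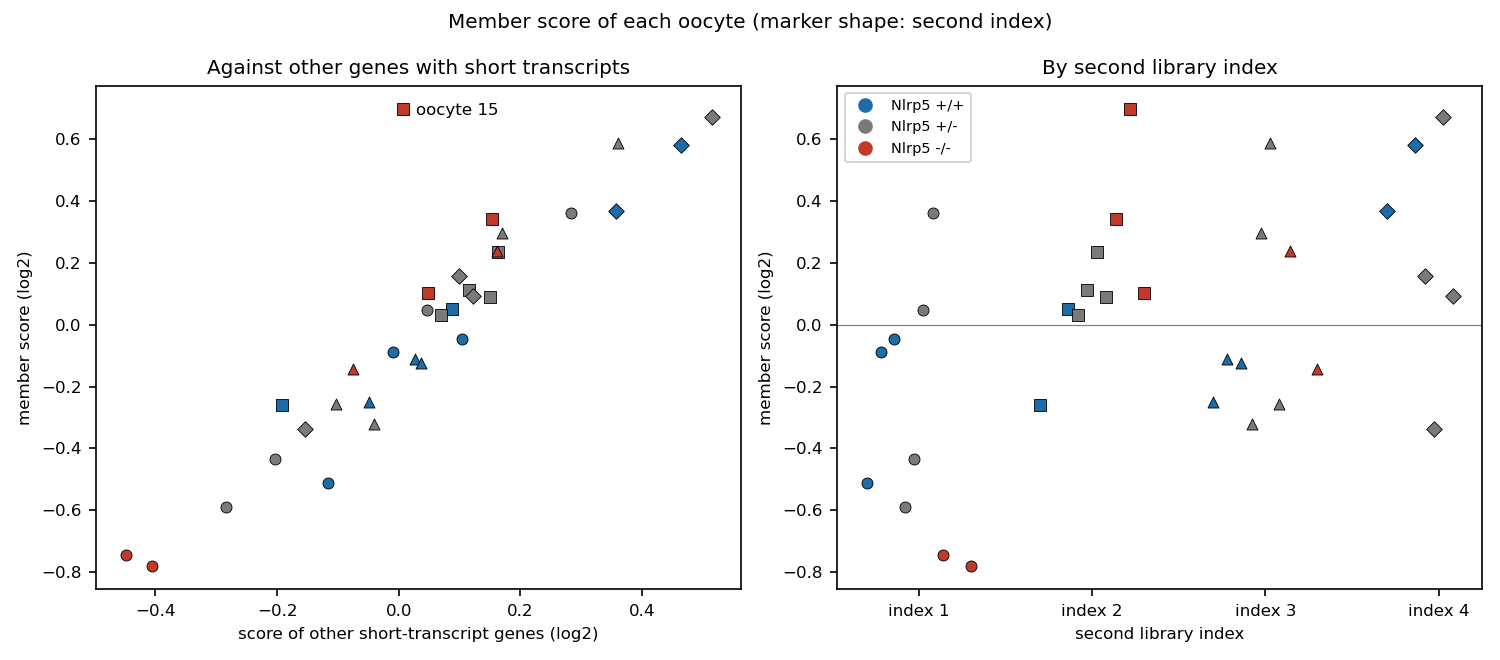
Member score of each oocyte (log2) against the score of other genes with short transcripts (left) and by second library index (right), coloured by genotype, with the marker shape giving the index. Points lie along a rising line apart from oocyte 15, and 8 of the 9 oocytes with index 2 but 2 of the 9 with index 1 score above 0.

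Genotypes were then compared at each stage as the log2 difference of mean normalized counts, after adding 1, for genes with a mean of at least 10 over the oocytes compared. A difference of at least 0.5 on this scale in either direction is called past the fold, with the share of all genes past it as the background. The comparisons share groups, so their values are not independent of each other.

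At NSN the members of Nlrp5 -/- oocytes differed little from those of Nlrp5 +/+ oocytes as a set. The median difference was -0.09 (0.00 over all 13838 genes), with 2 of 77 members higher past the fold and 8 lower, against 15.6% and 13.3% of all genes. By complex the medians were -0.15 in complex I, 0.31 in complex II, -0.01 in complex III, -0.16 in complex IV and -0.06 in complex V. Within the 1 second index that both groups share, index 3, the median was 0.29, with oocytes 14 and 30 set against 70 and 78, and without oocyte 13 or 29 it was 0.02 or 0.04, so the sign of the median depended on the libraries compared. Without oocyte 14, 30 members were past the fold in place of 10.

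Ndufc2, an accessory subunit of the membrane arm of complex I, had the lowest difference. Its level was 207, 251, 294 and 397 normalized counts in NSN Nlrp5 -/- oocytes and 429.8, 461, 468 and 593 in Nlrp5 +/+ oocytes, a difference of -0.76. All 4 Nlrp5 -/- oocytes were below all 4 Nlrp5 +/+ oocytes. The pooled raw counts behind these values were 1262 (95% exact Poisson interval 1193 to 1334, for counting error only) and 2459 (2363 to 2558). At SN the Nlrp5 -/- oocytes had 283 and 549.9, against 379 to 895 (median 603) in Nlrp5 +/+ oocytes, a difference of -0.55 with overlap. Against Nlrp5 +/- littermates Ndufc2 differed by -0.98 at NSN, where they had 295 to 869 normalized counts and overlapped, and by -0.53 at SN. Ndufc2 was thus past the fold and lower in all 4 comparisons of Nlrp5 -/- oocytes.

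Ndufb2, a small accessory subunit of complex I, was also lower in Nlrp5 -/- oocytes by 0.71 and overlapped between the groups, with a mean of 149.5 ± 48.5 (SD, n = 4) against 246 ± 46.5 (n = 4). The entry Gm42420 on the same strand covers 4022 of its 10809 bases, with 7143 counts against 8843 for Ndufb2, so the 2 cannot be fully told apart.

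Among the 4 subunits of complex II, 1 passed the fold at NSN between Nlrp5 -/- and Nlrp5 +/+ oocytes, the membrane anchor Sdhc (-0.53). Sdhc had 367, 377, 415 and 682 normalized counts in these oocytes and 586, 594, 616 and 861 in Nlrp5 +/+ oocytes. These groups overlapped. The flavoprotein Sdha differed by 0.43, the other anchor Sdhd by 0.41 and the iron-sulfur subunit Sdhb by 0.20. At SN these 4 genes differed by 0.01, -0.35, -0.13 and -0.08 in the order Sdha, Sdhd, Sdhc and Sdhb, and none passed the fold.

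Between Nlrp5 +/- and Nlrp5 +/+ oocytes at NSN the differences of the members were mostly above 0 and small. The median was 0.30 against 0.04 for all genes and 75 of 77 members were above 0 (54.2% of all genes), while 6 passed the fold upward and 0 downward, against 10.8% and 8.61% of all genes. The medians of the complexes were alike, between 0.23 (complex III) and 0.38 (complex V). Uqcr11, a small subunit of complex III, differed most, by 0.70, with 405, 408, 449 and 522 normalized counts in Nlrp5 +/+ oocytes and 427 to 1235 (median 633) in Nlrp5 +/- oocytes. Ndufa3 (0.63) and Atp5d (0.62) followed. Within indices 2 and 3 the median was 0.18 and 0.37. Other short-transcript genes had a median of 0.19 and other long ones 0.02.

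Nlrp5 -/- oocytes had less than their Nlrp5 +/- littermates at NSN, and this was the widest genotype difference of the set. The median was -0.37 (0.00 over all genes), 70 of 77 members were below 0, and 30 were lower past the fold and 0 higher, against 14.9% and 12.2% of all genes. Complex IV had the lowest median, -0.53, with 6 of 12 members past the fold, followed by complex I at -0.45 with 17 of 36, while complex II lay at -0.02. After Ndufc2 the lowest were Ndufb11 (-0.89), a complex I subunit encoded on the X chromosome, and Cox6b1 (-0.84), the ubiquitous form of subunit VIb. Ndufb11 had 653, 810.3, 1269.6 and 1824 normalized counts in Nlrp5 -/- oocytes and 1032 to 3679.5 (median 1881) in Nlrp5 +/- oocytes, and the groups overlapped. The low values were those of oocytes 13 and 29. Within index 1, which holds these oocytes, the median was -0.89, and within index 3, with oocytes 14 and 30, it was -0.12. Other short-transcript genes also had a median of -0.28 here, against 0.03 for long ones, and 17 members rather than 30 were past the fold relative to genes of like length. The count was 59 without oocyte 14, 15 without oocyte 13, 14 without oocyte 29, and 3 from counts summed over the oocytes of a group.

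At SN the Nlrp5 -/- group had 2 oocytes, and its members were near those of Nlrp5 +/+ oocytes on the median (0.08, against 0.00 for all genes). Past the fold, 11 members were higher and 2 lower, against 15.9% and 18.7% of all genes. These groups have no second index in common. Without oocyte 7 or 69 the median was -0.02 or -0.03, and without oocyte 31 or 80 the members past the fold were 30 or 21 in place of 13.

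Atp5d, the delta subunit of the central stalk of the ATP synthase, differed most, by 1.24. It had 433 and 437 normalized counts in the SN Nlrp5 -/- oocytes and 121 to 293 (median 157) in the Nlrp5 +/+ oocytes, with no overlap. The pooled raw counts were 923 (864 to 985) and 1664 (1585 to 1746). At NSN it had 208, 210.4, 264 and 443 in Nlrp5 -/- and 88.2, 115, 175 and 350.3 in Nlrp5 +/+ oocytes, a difference of 0.62 with overlap. Against Nlrp5 +/- oocytes it differed by 0.81 at SN and 0.01 at NSN. Oocyte 15 had 830.4, more than any other. An entry on the opposite strand, Cbarp, overlaps 2204 of its 7187 bases with 425 counts in all against 9732 for Atp5d.

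Uqcrc1, a core protein of complex III, followed at 1.04. It had 208 and 221 normalized counts in SN Nlrp5 -/- oocytes and 69.9 to 131 (median 112) in SN Nlrp5 +/+ oocytes, and the groups did not overlap. SN Nlrp5 +/- oocytes ranged from 55.3 to 221 (median 82.6), which covered both Nlrp5 -/- values. The study used Uqcrc1 as a staging marker, so its level had a part in naming these oocytes SN. Cox6b2 came next at 0.86 with overlap, at 271 and 461 against 129 to 354 (median 193).

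Nlrp5 +/- and Nlrp5 +/+ oocytes differed little at SN when pooled. The median was -0.06 (-0.01 over all genes), with 0 members higher and 3 lower past the fold, against 5.34% and 5.29% of all genes. The 3 were Cox6a2 (-0.56), Uqcrh (-0.55), the hinge protein of complex III, and Ndufb9 (-0.51), and all overlapped between the genotypes. Within second indices the median was -0.41 in index 1 (oocyte 37 against 3 Nlrp5 +/+ oocytes), 0.14 in index 3 (2 against oocyte 86) and -0.37 in index 4 (oocyte 40 against 2), so each value rests on 1 oocyte on one side. Ndufb9 shares 3604 of its 5733 bases with the entry Gm49356 on the same strand.

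Against Nlrp5 +/- littermates at SN, the 2 Nlrp5 -/- oocytes had a median of 0.16 (0.01 over all genes), with 15 members higher and 1 lower, against 14.6% and 17.6% of all genes. Complex III had the highest median, 0.43, with all 8 members above 0. Atp5g3 (0.87) led and did not overlap, with 185 and 256 normalized counts against 77.2 to 151 (median 131), and Atp5d (0.81) and Uqcrc1 (0.79) followed. Within index 2, which holds both Nlrp5 -/- oocytes and 3 Nlrp5 +/- oocytes, the median was 0.06. Without oocyte 7 the members past the fold were 9, and without oocyte 31 they were 34, in place of 16. The direction of the members between Nlrp5 -/- oocytes and their littermates was thus downward at NSN and slightly upward at SN, a contrast that was not tested.

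**Figure D3:**
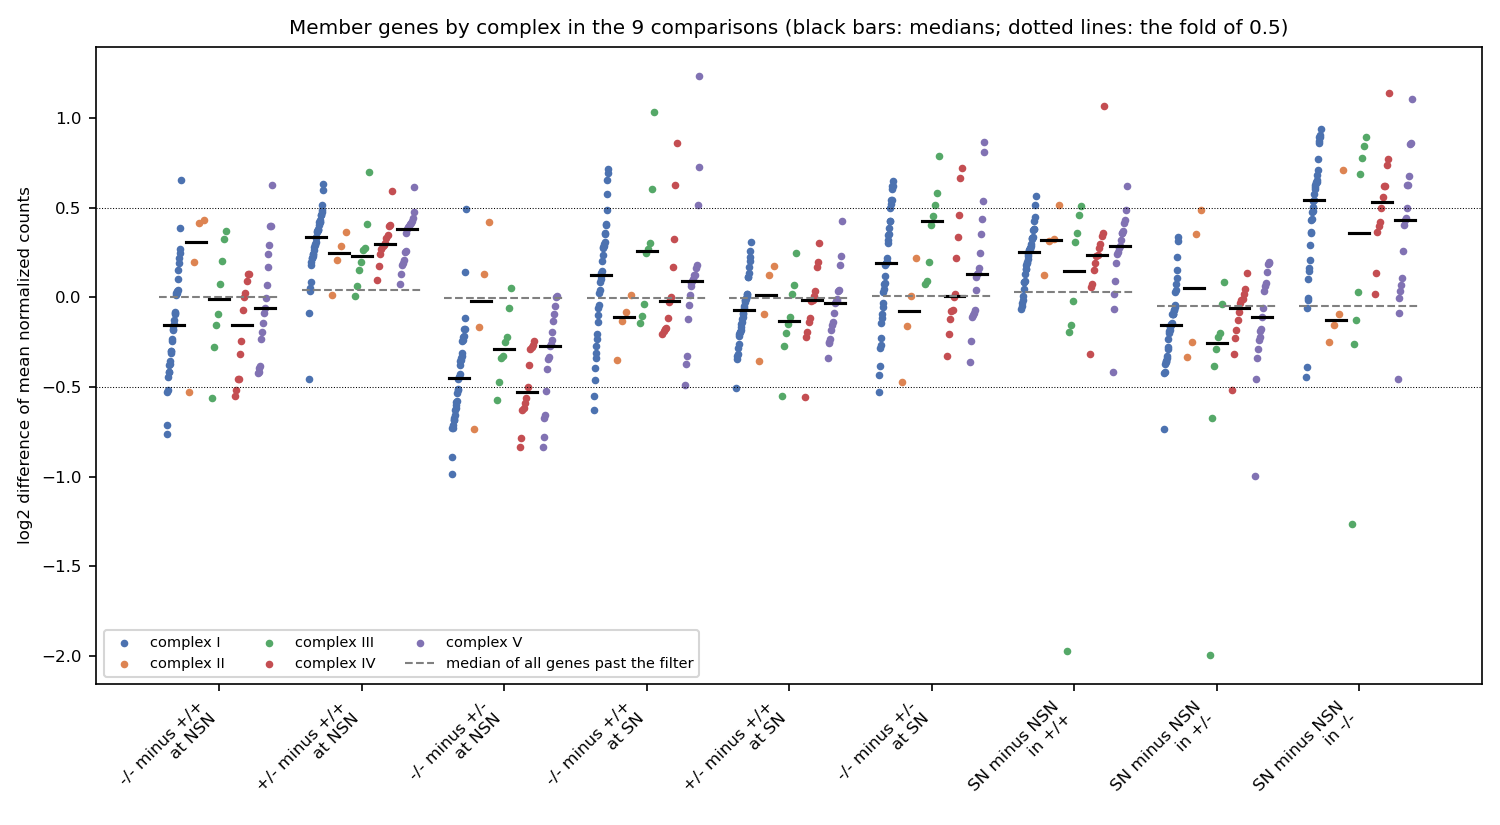
Log2 difference of mean normalized counts for the 77 members past the filter, by complex, in the 9 comparisons of genotypes and stages, with black bars for the median of a complex, dashed lines for the median of all genes and dotted lines for the fold of 0.5. The members lie lowest in Nlrp5 -/- minus Nlrp5 +/- at NSN and highest in SN minus NSN in Nlrp5 -/-, and Uqcrc1 is the isolated low point of complex III in the stage comparisons.

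The stages were compared within each genotype as a description, since they were assigned from expression in these libraries. In Nlrp5 +/+ oocytes the SN members were higher by a median of 0.27 (0.03 over all genes), with 6 of 77 higher and 1 lower past the fold, against 13.9% and 20.0% of all genes. In Nlrp5 +/- oocytes they were lower by 0.15 on the median (-0.05 over all genes), with 0 higher and 5 lower, against 9.32% and 19.4%. In Nlrp5 -/- oocytes they were higher by a median of 0.50 (-0.05 over all genes), with 37 higher and 1 lower, against 14.3% and 23.8%. Within single first indices the median went both ways in Nlrp5 +/+ oocytes (0.27, -0.10 and 0.50) and in Nlrp5 +/- oocytes (-0.28 and 0.52). Within second indices it was 0.11 in Nlrp5 +/+ oocytes (index 3) and below 0 in all 4 for Nlrp5 +/- oocytes (-0.66, -0.03, -0.21 and -0.10 in indices 1 to 4). From counts summed over the oocytes of a group, 12 members in place of 38 were past the fold in Nlrp5 -/- oocytes. The difference between the genotypes was not tested.

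In Nlrp5 -/- oocytes the difference was of like size in 4 complexes, with medians of 0.54 in complex I, 0.36 in complex III, 0.53 in complex IV and 0.43 in complex V, and lay at -0.12 in complex II. Leaving out any 1 oocyte gave medians from 0.36 to 0.77. Between oocytes of the same first index, 31 against 29 and 30, the median was 0.49. Members with short transcripts had a median of 0.61 and those with long ones 0.28, against 0.25 and -0.08 for other genes with short and long transcripts.

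Uqcrc1 stood apart from the other members in every genotype. It had 335, 353, 385 and 573 normalized counts in NSN Nlrp5 +/+ oocytes and 69.9 to 131 at SN, a difference of -1.97. In Nlrp5 +/- oocytes it went from 269 to 1061 (median 423) at NSN to 55.3 to 221 at SN, a difference of -2.0. In Nlrp5 -/- oocytes it had 234, 354, 428 and 1049 at NSN and 208 and 221 at SN, a difference of -1.26. The stages did not overlap in any genotype. Uqcrc1 was among the markers from which the stages were set, so this separation was in part built into the groups. The gene lies on chromosome 9 from 108936633 to 108949623 on the plus strand (GRCm38) and the NRF1 letters of its window lie downstream of the RefSeq start. No other member was a staging marker. Uqcrc2, the partner core protein, had among the smallest spreads of all members, with a coefficient of variation of 0.20 over the 32 staged oocytes. That of Uqcrc1 was 0.81, which takes in its difference between the stages.

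Cox6a2 was higher at SN in Nlrp5 +/+ oocytes, by 1.07, and in Nlrp5 -/- oocytes, by 1.14, and lower by 0.08 on the log2 scale in Nlrp5 +/- oocytes. It had 40, 83.3, 92.4 and 114 normalized counts in NSN and 121 to 213 (median 172) in SN Nlrp5 +/+ oocytes. In Nlrp5 -/- oocytes it had 51.7, 56.8, 108 and 136 at NSN and 169 and 221 at SN. The stages did not overlap in either genotype, but in Nlrp5 +/- oocytes the NSN values (79.1 to 237) enclosed those at SN (85 to 149). Atp5e, the epsilon subunit of the ATP synthase stalk, was higher at SN by 0.62 in Nlrp5 +/+ oocytes with overlap and by 1.11 in Nlrp5 -/- oocytes without, where it went from 384, 439, 1099 and 1156 to 1653 and 1666. In Nlrp5 +/- oocytes the members lowest at SN after Uqcrc1 were Atp5g3 (-1.0) and Ndufb9 (-0.73), both with overlap.

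**Figure D4:**
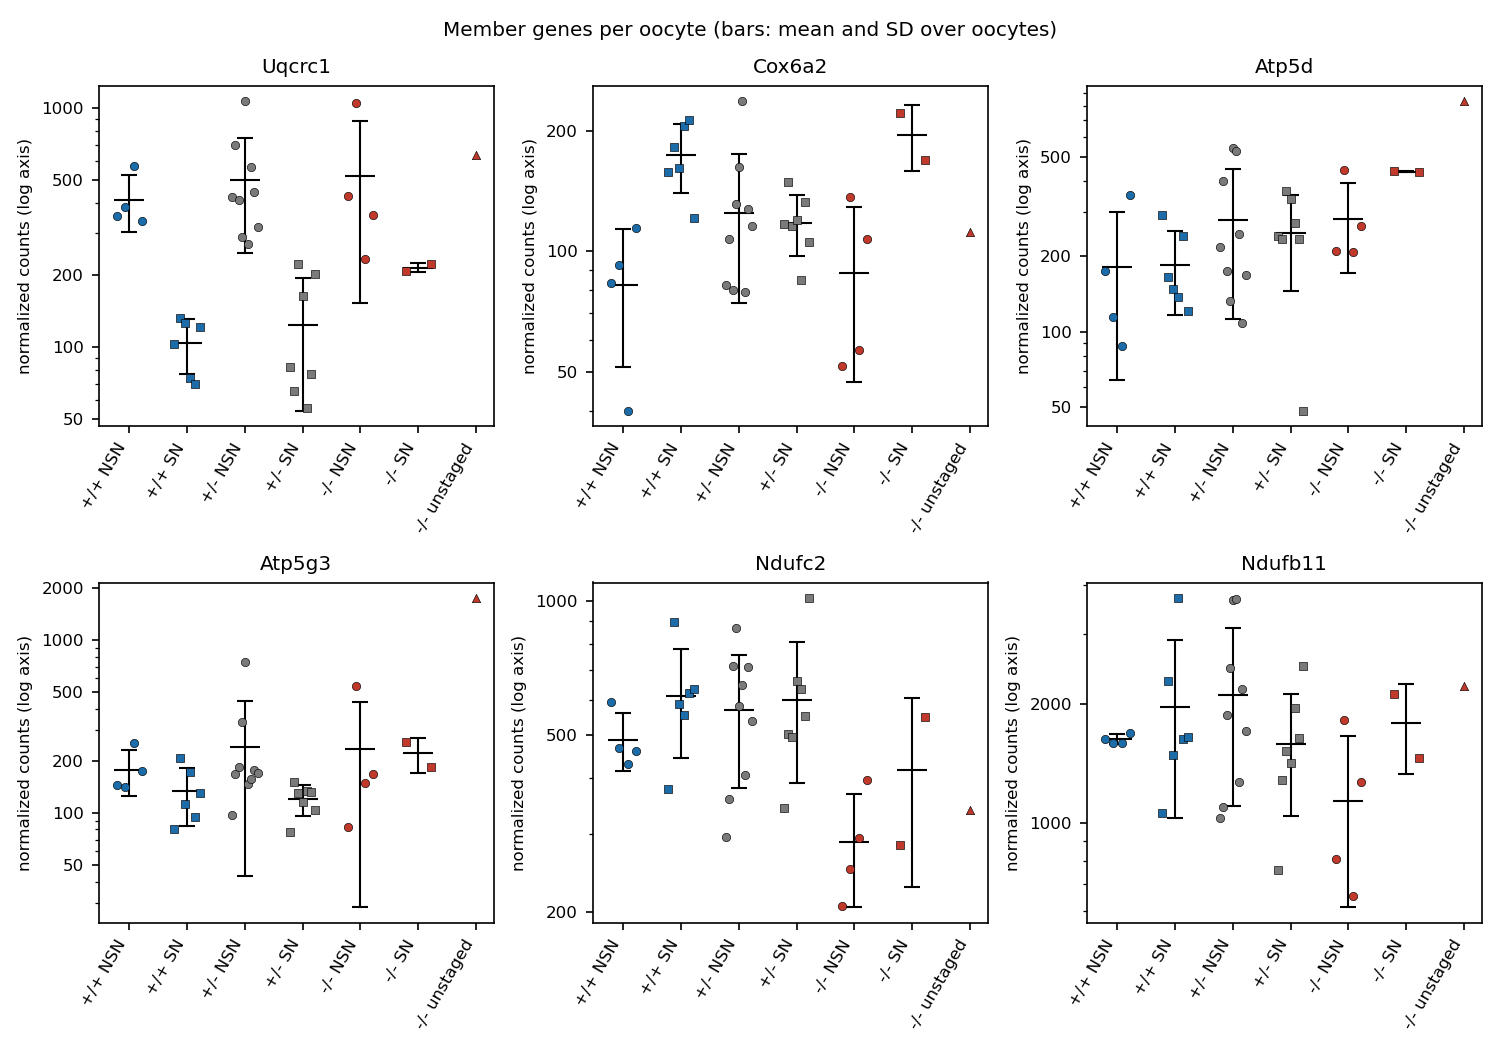
Normalized counts (log axis) of 6 members, with 1 point per oocyte by genotype and stage and bars for the mean and SD. Uqcrc1, a staging marker, is lower at SN than at NSN in each genotype, and Ndufc2 is lowest in the NSN Nlrp5 -/- oocytes. Atp5d is high in both SN Nlrp5 -/- oocytes, and Atp5g3 is highest in the unstaged oocyte 15 at 1751.

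The spread between oocytes was also measured gene by gene. The coefficient of variation over the staged oocytes had a median of 0.33 over the 77 members, against 0.29 over 7298 other genes in the same range of mean level. It was lowest in Cox7a2l (0.19), Uqcrc2 (0.20), Sdhb (0.22), Atp5b (0.23) and Atp5a1 (0.23), the last pair being the beta and alpha subunits of the catalytic head of the ATP synthase, and highest in Uqcrc1 (0.81), Atp5g3 (0.73) and Atp5d (0.51). The value for Uqcrc1 takes in its difference between the stages. Members with short transcripts had a median of 0.36 and those with long ones 0.32.

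The rest of the pathway was followed with fixed lists. The share of all genes past the fold in these comparisons was 15.6% higher and 13.3% lower at NSN and 15.9% and 18.7% at SN. Of the subunit genes the pattern leaves out, 0 of 8 past the filter passed the fold in NSN Nlrp5 -/- against Nlrp5 +/+ oocytes, and at SN 2 of 9 were higher, Cyc1 (cytochrome c1, 0.53) and Cox4i2 (1.24), and 1 lower, the testis cytochrome c Cyct (-0.90). Of 9 regulators past the filter, the polymerase gene Polrmt was higher at NSN (0.59), and at SN Gabpa (1.16) and Pprc1 (0.65) were higher and Tfam (-0.54) and Tfb2m (-0.83) lower. Polrmt was also higher in NSN Nlrp5 +/- than Nlrp5 +/+ oocytes, by 0.73, and Gabpa in SN Nlrp5 +/- oocytes, by 0.94, and neither was past the fold between Nlrp5 -/- oocytes and these littermates.

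Of 43 assembly factor genes past the filter, in Nlrp5 -/- against Nlrp5 +/+ oocytes, 3 were higher and 4 lower at NSN, and 6 higher and 9 lower at SN, with medians of -0.10 and -0.05. Against Nlrp5 +/- littermates 0 of 44 were higher and 15 lower at NSN, with a median of -0.31 (12.2% and 14.9% of all genes), and 4 of 42 were higher and 8 lower at SN, with a median of -0.01 (14.6% and 17.6%). Against Nlrp5 +/+ oocytes at NSN those higher were Ecsit (0.56), Bcs1l (0.72) and Atpaf2 (0.81), and those lower Nubpl (-0.84), Cox16 (-1.01), Sco1 (-1.93) and Surf1 (-0.64). At SN those higher were Ndufaf6 (0.59), Timmdc1 (0.55), Bcs1l (0.52), Cox11 (1.82), Cox15 (0.62) and Atpaf2 (0.94), and those lower Ndufaf4 (-0.86), Ndufaf7 (-0.64), Sdhaf1 (-0.82), Sdhaf3 (-0.75), Lyrm7 (-0.86), Cox16 (-0.78), Sco1 (-3.77), Surf1 (-0.80) and Coa4 (-0.53). At NSN Ecsit (0.56) and Atpaf2 (0.66) were also higher in Nlrp5 +/- than Nlrp5 +/+ oocytes, and at SN Cox11 (1.67), and none of the 3 was past the fold at that stage between Nlrp5 -/- oocytes and these littermates.

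Sco1, a copper chaperone of cytochrome c oxidase on chromosome 11, had 5.54, 17.8, 26.8 and 37.4 normalized counts in NSN Nlrp5 -/- oocytes and 55.6 to 128 in NSN Nlrp5 +/+ oocytes. At SN it had 0 counts in oocyte 7, where 3 counts would be 4.05 normalized counts, and 5.06 in oocyte 31, against 33 to 74.5 (median 41.7) in Nlrp5 +/+ oocytes. The Nlrp5 -/- and Nlrp5 +/+ oocytes did not overlap at either stage. Nlrp5 +/- oocytes had 26.3 to 82.6 at SN, above both Nlrp5 -/- oocytes, and 22.7 to 99.5 at NSN, which overlapped with them. The counts were few, 7 in both SN Nlrp5 -/- oocytes together, and the unstaged oocyte 15 had 51.3, within the Nlrp5 +/+ range. Surf1 had 382 to 599 in NSN Nlrp5 -/- oocytes against 680.2 to 747 in Nlrp5 +/+ oocytes, and 422 and 553 against 647 to 1193 at SN, again without overlap. Nlrp5 +/- oocytes overlapped with the Nlrp5 -/- oocytes for Surf1 at both stages, with 455 to 1262 at NSN and 551 to 784 at SN. Cox16 had 185 to 371 against 475 to 655 at NSN, without overlap, and 188 and 496 against 403 to 997 at SN, with overlap. Nlrp5 +/- oocytes had 329 to 1014 at NSN, which overlapped with the Nlrp5 -/- oocytes. An entry on the same strand covers the whole span of Cox16 with 15441 counts against 19045. Of the assembly factors that were higher, Atpaf2 did not overlap with Nlrp5 +/+ oocytes at either stage. It had 105 to 199 against 47 to 94 at NSN, and 144 and 190 against 60.7 to 113 at SN. Cox11 had 17.5 and 55.7 against 4.02 to 15.6 at SN, also without overlap. At SN the Nlrp5 +/- oocytes overlapped with the Nlrp5 -/- oocytes for both genes.

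The subunits encoded in mitochondrial DNA differed most at SN. Their summed level was 10869.8 to 25904 normalized counts in NSN and 5174 and 7967 in SN Nlrp5 -/- oocytes, against 14622 to 30136 and 8254 to 29516 in Nlrp5 +/+ oocytes, and 13 of 13 genes were lower past the fold at SN with a median of -1.88. At NSN 3 were higher and 1 lower, with a median of -0.04. In the same SN oocytes the nuclear members summed to 72850 and 65056 normalized counts, within the 51325 to 92190 of the Nlrp5 +/+ oocytes. All mitochondrial counts together were 0.0175% to 0.617% of a library, and nuclear copies of mitochondrial sequence can take such reads.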

How the data were processed

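RNA of 33 single germinal vesicle oocytes was measured. RNA and DNA of each cell were separated by a Smart-seq2-based protocol, and Nextera XT libraries were made. The authors deposited raw counts of reads per gene, not normalized, after trimming (Trim Galore), alignment (HISAT2) and quantitation in SeqMonk. The table's headers and coordinates are those of GRCm38, while the methods name GRCm39. Libraries under 4000000 reads had been left out. A further deposited table gives the read count of each library, and tables of the authors' own DESeq2 comparisons (fold changes and p-values) were not used. CPM values are counts divided by the library total. Of 35373 entries, 52 repeats of an identifier were dropped, keeping the one with more counts.

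Genotypes came from the labels and stages from the paper's figures. Oocytes 55 and 61 lie apart from their stage in the published clustering. Means over oocytes of counts scaled by size factors, with a pseudocount of 1, gave log2 differences. The filter was a mean of 10 and the fold 0.5. Exon and transcript lengths came from GENCODE M39 by identifier. Named genes were the 3 members with the largest difference in each comparison among those with a mean of at least 50, the highest per length in each complex, Uqcrc1, the alternative forms and complex II. A gene that the rule also names is not reported here. The members and all lists were chosen with earlier results of these data known. Alternatives were other scalings, including TMM (edgeR 4.0.16, R 4.3.3), filters, pseudocounts and oocytes left out. The steps were tested on simulated data. Precision is set by the few oocytes per group, and depth was 4225037 to 15579217 counts. Python 3.11.15, numpy 2.4.6, pandas 2.3.3 and matplotlib 3.10.9 were used.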

Additional observations from a re-analysis of the deposited data

Results flagged for a closer look

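Oocyte 15 has no stage and entered no comparison made within a stage or between stages. Its summed levels were above the highest Nlrp5 +/+ oocyte for complex I (34716 against 34673 normalized counts), complex III (12918 against 11856), complex IV (17723 against 16529) and complex V (30643 against 24272). For complex I the NSN Nlrp5 +/- oocyte 56 was higher than oocyte 15, at 38703. Complex II, at 4354 in oocyte 15, lay inside the Nlrp5 +/+ range. This oocyte also had the most counts on granulosa cell markers, 1365 CPM, and on theca cell markers, 709 CPM, and of the 77 members 31 had their highest level in it. Over all oocytes the member score and the granulosa markers had r = 0.338, and without oocyte 15 r = 0.098.

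In 5 of 105 sets of 4 to 9 oocytes, 1 oocyte stood far from the others of its genotype and stage. Chance gives about 1 in 20, so this number is about what chance gives. At SN the Nlrp5 +/- oocyte 55 was lowest for Atp5d (48.5 normalized counts, the next being 234). The NSN Nlrp5 +/- oocyte 56 was highest for Atp5g3 (744, the next being 333). The SN Nlrp5 +/+ oocyte 80 was highest for Cox6b2 (354, the next being 207). Among NSN Nlrp5 +/+ oocytes, 87 was highest for Atp5e (1368, the next being 941) and 78 for Uqcrh (1358, the next being 1093).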

How the results depend on the processing

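Oocytes could not be paired by donor or litter, because the labels name no mouse, and no test was run. Comparisons within a library index were made as values only. Of 197 recomputed medians over the members, 196 moved by less than the spread between oocytes. That spread was wide beside most of these medians, and some medians changed sign without moving as far as it. The exception was Nlrp5 -/- against Nlrp5 +/+ at NSN, which went from -0.09 to 0.29 within the second index, an alternative chosen after seeing the data. Leaving out 1 oocyte gave -0.39 to 0.04 there, 0.22 to 0.36 for Nlrp5 +/- against Nlrp5 +/+ at NSN and -0.64 to -0.28 for Nlrp5 -/- against Nlrp5 +/- at NSN. At SN it gave -0.03 to 0.22 for Nlrp5 -/- against Nlrp5 +/+, -0.16 to 0.04 for Nlrp5 +/- against Nlrp5 +/+ (above 0 without oocyte 37 or 80) and 0.07 to 0.30 for Nlrp5 -/- against Nlrp5 +/-. For SN against NSN it gave 0.10 to 0.34 in Nlrp5 +/+, -0.20 to -0.05 in Nlrp5 +/- and 0.36 to 0.77 in Nlrp5 -/- oocytes. The stage median of Nlrp5 +/- oocytes was 0.12 within the first index. Without regard to stage, Nlrp5 -/- oocytes differed from Nlrp5 +/+ oocytes by 0.04, and by -0.10 without oocyte 15. Counts of members past the fold were less stable, with 154 of 206 within 1.5 times the count given. Summing counts over oocytes gave 12 in place of 38 for the stages in Nlrp5 -/- oocytes. For Nlrp5 +/- against Nlrp5 +/+ at NSN the 6 became 18 without oocyte 87, 13 without 45, 11 without 48, 10 without 62 and 3 without 61, and at SN the 3 became 1 without oocyte 37, 38, 72 or 80. For the stages the 7 in Nlrp5 +/+ oocytes became 13 without oocyte 69 and 12 without 87, and the 5 in Nlrp5 +/- oocytes 8 without 55. With a fold of 1, the 9 comparisons had 0 to 3 members past it. The causes were not tested.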
